A study of Homo sapiens with 11 samples.

Results

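Described here are the glucocorticoid receptor (GR) sites that were bound in both transgene lines of the study and lay outside every listed SUMO-2/3 site. They were the sites of the wild-type GR list that overlapped a GR site of the 3KR line by at least 1 bp and no SUMO-2/3 site of either line. The rule gave 5495 sites, which is 48.8% of the 11259 wild-type GR sites (95% exact Clopper-Pearson interval 47.9 to 49.7) and 54.9% of the 10006 shared GR sites (53.9 to 55.9). In the 3KR line, 5503 of 18856 GR sites (29.2%) overlapped them. SUMO-2/3 was listed at the other 4511 shared sites, at 2007 in both lines, at 2008 in the wild-type line only and at 496 in the 3KR line only. All members were chosen by their presence or absence in peak lists, so that presence is a description and was not tested.

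The samples were isogenic HEK293 cells, an established line from human embryonic kidney, made with the Flp-In system and grown under hygromycin-B. One line stably expressed wild-type GR, another a SUMOylation-defective GR named GR3KR (the 3KR line), and the control line, FRT, expressed no transgene. Cells of all 3 lines were held for 72 h in medium with charcoal-stripped serum and then received the synthetic glucocorticoid dexamethasone at 100 nM for 1 h before chromatin immunoprecipitation and sequencing (ChIP-seq). GR and SUMO-2/3 were each mapped in 2 libraries per transgene line, and GR in 1 library of the control line. Each line is 1 cell population and no untreated cells were analysed here, so neither the spread between independently made lines nor the part of the signal that needs the hormone can be given. The labels call the 2 libraries of a group biological duplicates without naming separate cultures, so p-values measure the spread between these libraries.

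GR is a nuclear receptor that resides in the cytoplasm with chaperones, moves to the nucleus when it binds a glucocorticoid and contacts DNA at palindromic response elements or through other DNA-bound factors. SUMO-2 and SUMO-3 are small, nearly identical proteins that are joined to lysines of many chromatin proteins by a dedicated enzyme cascade and removed by SENP proteases. GR carries acceptor lysines for them, among which those of its amino-terminal domain are known for limiting transcription at promoters with several response elements. An antibody to SUMO-2/3 does not tell which protein at a site carries the modifier. Absence from a SUMO-2/3 list means that no peak passed the authors' listing limits in both libraries, not that the modifier was lacking.

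The SUMO-2/3-free sites were occupied by GR at lower levels than the other shared sites in all 4 GR libraries. Values could be paired between lines at 9763 shared sites where a single wild-type site met a single 3KR site, 5397 of them SUMO-2/3-free. Tags, the sequenced fragments counted within a library's own peak, had medians of 110 and 195 at the SUMO-2/3-free sites in wild-type libraries 1 and 2, and of 218 and 178 in 3KR libraries 1 and 2. Where SUMO-2/3 was listed in both lines the medians were 227 and 396 in the wild-type and 408 and 357 in the 3KR libraries. Fold enrichment, the authors' ratio of a peak to its local background, told the same order, with medians of 13.8, 11.7, 23.7 and 14.9 at SUMO-2/3-free sites against 27.2, 21.8, 39.0 and 28.2 where SUMO-2/3 was listed in both lines, in the same library order. At the SUMO-2/3-free sites the duplicates differed in tags by a median ratio, library 2 over library 1, of 1.72 for wild-type GR and 0.830 for GR3KR, with Spearman coefficients of 0.776 and 0.844 across 5397 sites that share these libraries. The ranges of the classes overlapped widely. Paired SUMO-2/3-free sites reached a fold of 51.1 in wild-type library 1 and 68.2 in 3KR library 1. Paired sites with SUMO-2/3 in both lines began at 8.01 and 9.74.

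**Figure D1:**
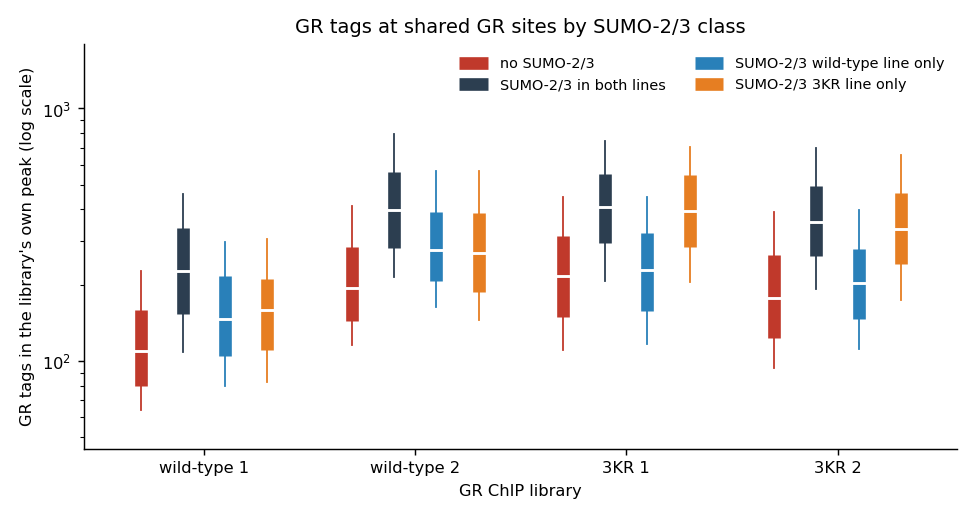
GR tags (log axis) in each of the 4 GR libraries at shared sites of the 4 SUMO-2/3 classes; thick bars run from the 25th to the 75th percentile over sites, thin lines from the 10th to the 90th, and the white mark is the median. The SUMO-2/3-free class has the lowest median in every library, 110 tags in wild-type library 1 and 218 in 3KR library 1, and its bars overlap those of the other classes.

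Set against all shared sites with SUMO-2/3, the median of the SUMO-2/3-free sites was lower by a log2 difference of -0.70 and -0.72 in wild-type libraries 1 and 2, and of -0.54 and -0.62 in 3KR libraries 1 and 2. Against this pooled class the gap was smaller in both 3KR libraries than in both wild-type libraries, by 0.13 log2 units on average. The exact two-sided permutation test over the 4 libraries gave p = 0.33, the smallest that 2 against 2 libraries allow. The order of the lines depended on the class compared with. Against sites with SUMO-2/3 in the wild-type line only, the log2 differences were -0.42 and -0.50 in the wild-type and -0.08 and -0.19 in the 3KR libraries. Against sites with SUMO-2/3 in the 3KR line only, they were -0.53 and -0.46, and -0.85 and -0.91, so the gap was there the larger one in the 3KR libraries. Against sites with SUMO-2/3 in both lines they ran from -1.05 to -0.90, and the wild-type libraries had the larger gap by a small margin. With tags taken per kb of the library's own peak the difference between lines was 0.05, and the libraries of the lines overlapped (exact permutation p = 0.667).

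SUMO-2/3-free sites made up a rising share of shared sites as GR fold enrichment went down. Ranked by wild-type fold, they were 196 of 1953 sites (10.0%, 95% interval 8.74 to 11.5) in the strongest quintile, 61.6% in the middle quintile and 86.7% (85.1 to 88.2) in the weakest. Ranked by 3KR fold, the shares were 18.1% (16.4 to 19.9), 62.2% and 78.6%, so the slope over quintiles was less steep in the 3KR ranking. The sites with SUMO-2/3 were a pool, with 1963 listed for it in the wild-type line only and 467 in the 3KR line only. The median log2 change in GR tags, 3KR over wild-type, was -0.28 at the former and 0.41 at the latter. The part of this make-up in the slopes was not tested. By the mean rank over all 4 libraries, 0 of the 200 strongest paired shared sites were SUMO-2/3-free. This allows a share of up to 1.5% (3 counts of the total). Of the first 500 paired sites 10 were SUMO-2/3-free, and of the first 1000, 57. Close to the listing limit lay 1879 of the SUMO-2/3-free sites (34.2%), with a fold under 10 in at least 1 wild-type library, against 8.36% of the shared sites with SUMO-2/3. These intervals cover counting error over sites only.

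The strongest paired SUMO-2/3-free sites were GR peaks listed in all 4 libraries. The first, on chromosome 9 from 27495516 to 27496540 (hg19, counted from 1, as all positions here), ranked 223 among the paired shared sites and had 295 and 357 tags in wild-type libraries 1 and 2 and 577 and 412 in 3KR libraries 1 and 2. Its folds were 51.1 and 28.0 in the wild-type and 68.2 and 41.3 in the 3KR libraries, and the nearest SUMO-2/3 site of either line lay 42.5 kb away. The second, on chromosome 6 from 149381915 to 149383866, had 365 and 635 wild-type tags and 699 and 665 3KR tags. Both were also GR sites in the control line.

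The third, on chromosome 10 from 34037594 to 34039311, had folds of 48.8 and 29.3 in the wild-type libraries and 55.1 and 38.5 in the 3KR libraries, with a SUMO-2/3 site only 891 bp from its edge and no control-line site. On chromosome 2, the site from 138935072 to 138936014 had 202 and 258 wild-type and 592 and 491 3KR tags, and it showed the greatest log2 difference between lines among the 10 strongest (0.87, SE 0.23, edgeR quasi-likelihood adjusted p = 0.118). The other chromosome 2 site, from 177800650 to 177801683, stood alone, 375 kb from any SUMO-2/3 site. In all 10 strongest sites 3KR library 1 gave the highest fold and wild-type library 2 the lowest, while the order of the remaining libraries varied. The median folds over all paired shared sites had the same extremes, 27.2 in 3KR library 1 and 13.9 in wild-type library 2. Of the 10, 4 had a SUMO-2/3 site within 10 kb, and 4 were control-line GR sites.

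**Figure D2:**
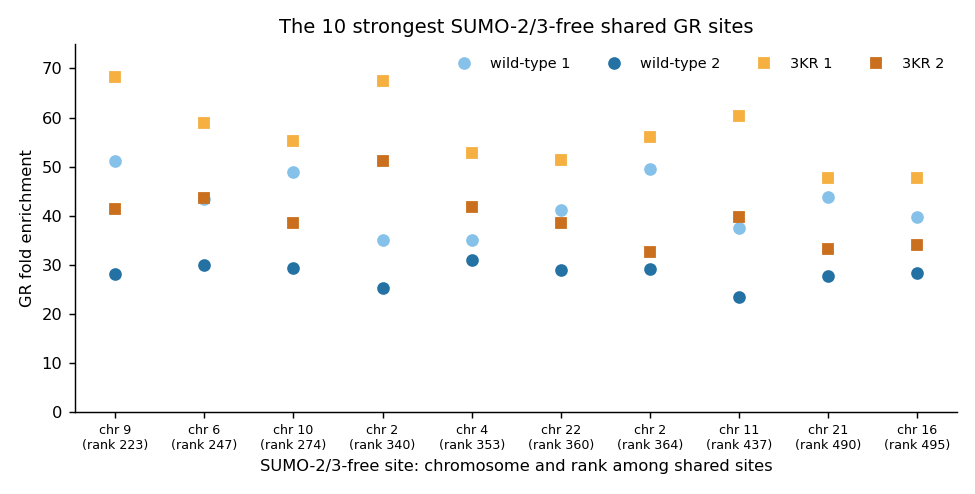
GR fold enrichment (linear axis) of the 10 strongest SUMO-2/3-free shared sites in each of the 4 GR libraries, named by chromosome and rank among paired shared sites. Every site has its highest value in 3KR library 1 and its lowest in wild-type library 2; the highest, on chromosome 9, is 68.2.

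GR tags at the shared sites were compared between the lines after scaling the libraries to each other over these same sites. The edgeR quasi-likelihood fit over all 9763 paired sites, 2 libraries against 2, called 0 sites at an adjusted p under 0.05 (0% of all tested), in either direction, and 0 of the SUMO-2/3-free sites; the lowest adjusted p was 0.0877. At an unadjusted p under 0.05 it had 2285 sites, 23.4% of all tested, and 1294 SUMO-2/3-free sites (24.0%), which is close to that background. DESeq2, another count model, called 7.13% of all sites with more tags in the 3KR line and 8.29% with fewer. Of the SUMO-2/3-free sites it called 464 (8.60%) and 341 (6.32%). The rule had required a peak in both lines, so sites with the widest differences were removed before the fit, and nothing is read from these counts. Without sites whose peak in a library held more than 1 site, the edgeR fit called 85 SUMO-2/3-free sites with more 3KR tags (1.64% of the SUMO-2/3-free sites tested, where 1.41% of all sites tested were called) and 76 with fewer (1.46%, against 1.92% of all). Without wild-type library 1 it called 41 with more (0.760%, against 0.697% of all) and 135 with fewer (2.50%, against 3.09% of all).

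The median log2 fold change, 3KR over wild-type, was 0.04 at the SUMO-2/3-free sites, with the middle of the distribution from -0.32 to 0.37 (25th to 75th percentile). The median over all tested sites was -0.02. Sites with SUMO-2/3 in both lines had a median of -0.03. It was -0.28 at sites with SUMO-2/3 in the wild-type line only and 0.41 at sites with SUMO-2/3 in the 3KR line only. In tags, the SUMO-2/3-free class thus lay beside the class with SUMO-2/3 in both lines, and the classes listed for SUMO-2/3 in a single line lay to either side. With the authors' fold enrichment in place of tags the medians were -0.01, -0.15, -0.27 and 0.26 in the same order. Sites with SUMO-2/3 in both lines were then nearer to those with it in the wild-type line only than to SUMO-2/3-free sites. For tags centred on each chromosome's median, the medians were 0.05, -0.01, -0.16 and 0.30. These class differences have no test over sites, which share their libraries.

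**Figure D3:**
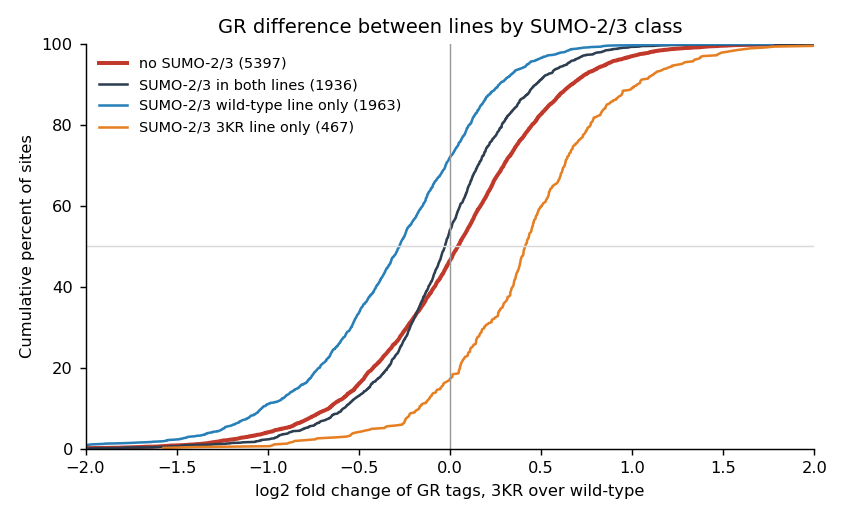
Cumulative percent of paired shared sites against the log2 fold change of GR tags, 3KR over wild-type, for the 4 SUMO-2/3 classes (number of sites in brackets). The SUMO-2/3-free curve crosses 50 percent at 0.04, between the classes with SUMO-2/3 in the wild-type line only (-0.28) and in the 3KR line only (0.41).

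Each library counted tags in its own peak, and peak length moved with these differences. Across the SUMO-2/3-free sites the log2 ratio of peak lengths had a Pearson r of 0.816 with the log2 fold change of tags (5397 sites, which share 4 libraries). Whether the counting in own peaks made this correlation was not tested. The median length ratio, 3KR over wild-type, was 1.02. Its part in the tag difference of a single site was not tested. By quintiles of the mean rank in all 4 libraries the median log2 fold change of SUMO-2/3-free sites was 0.18, 0.18, 0.16, 0.06 and -0.13 from strongest to weakest. For shared sites with SUMO-2/3 it was -0.05, -0.04, -0.12, -0.21 and -0.27. The SUMO-2/3-free median was therefore the higher one in each quintile against this pooled class. Over all quintiles, sites with SUMO-2/3 in the 3KR line only had a higher median than SUMO-2/3-free sites (0.41 against 0.04). The quintiles were not split by class of SUMO-2/3 site.

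No single SUMO-2/3-free site passed the threshold of the edgeR fit to all 9763 sites, so the sites of lowest p in each direction are given, chosen after their values were seen. On chromosome 8 from 110589109 to 110590065, wild-type libraries had 96 and 183 tags and 3KR libraries 795 and 657 (log2 fold change 2.08, SE 0.21, edgeR quasi-likelihood adjusted p = 0.0877). The 3KR site there was 2653 bp wide and the wild-type site 957 bp, while folds were 14.6 and 12.5 against 32.3 and 19.6. On chromosome 12 from 47167627 to 47168431, tags were 84 and 143 in the wild-type and 520 and 463 in the 3KR libraries, and folds 13.2 and 10.7 against 45.3 and 33.4. With each library's folds centred on their median over the paired sites, the log2 difference was 0.36 at the chromosome 8 site (limma adjusted p = 0.425) and 1.17 at the chromosome 12 site (limma adjusted p = 0.0509), smaller than in tags.

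In the opposite direction, a chromosome 17 site from 34454131 to 34457446 had 300 and 597 wild-type tags and 146 and 122 3KR tags (log2 fold change -2.03, SE 0.21, edgeR quasi-likelihood adjusted p = 0.0877). Its widths were 3316 bp and 836 bp in the wild-type and 3KR lists, and its folds of 13.8 and 8.45 in the wild-type overlapped those of 11.9 and 8.21 in the 3KR libraries, with a centred log2 difference of -0.67 (limma adjusted p = 0.178). On chromosome 21, the site from 36167599 to 36170458 had 296 and 454 against 99 and 118 tags, with folds of 20.8 and 12.9 against 11.3 and 8.71. There both 3KR libraries lay below both wild-type libraries in tags and in fold, and the centred log2 difference of the folds was -1.26 (limma adjusted p = 0.0509). Of the 5 SUMO-2/3-free sites of lowest p with more 3KR tags, all 5 had a wider 3KR than wild-type site and 4 were control-line GR sites. Of the 5 with fewer 3KR tags, all 5 had a narrower 3KR site and 0 were control-line sites. Among all SUMO-2/3-free sites, 5.99% were control-line sites. Each library counted tags in its own peak, and width and tags moved together at these sites. These sites were picked by p and direction, so nothing is read from their counts.

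Chromosome moved with the difference between lines at SUMO-2/3-free sites as it did at the other shared sites. The median log2 fold change at SUMO-2/3-free sites ran from -0.57 on chromosome 21 (51 sites) and -0.55 on chromosome 14 (201 sites) to 0.39 on chromosome 6 (322 sites) and 0.62 on chromosome 18 (107 sites). Shared sites with SUMO-2/3 had -0.88, -0.70, 0.19 and 0.56 on the same chromosomes. On all 23 chromosomes the SUMO-2/3-free median lay above that of the pooled sites with SUMO-2/3, by margins near 0 on chromosomes 16 and 19. That pool held 1963 sites with SUMO-2/3 in the wild-type line only and 467 with it in the 3KR line only. Over all chromosomes their median log2 fold changes were -0.28 and 0.41, against 0.04 at SUMO-2/3-free sites. The order therefore depended on the class compared with. The part of chromosome in the difference of a single site was not tested.

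**Figure D4:**
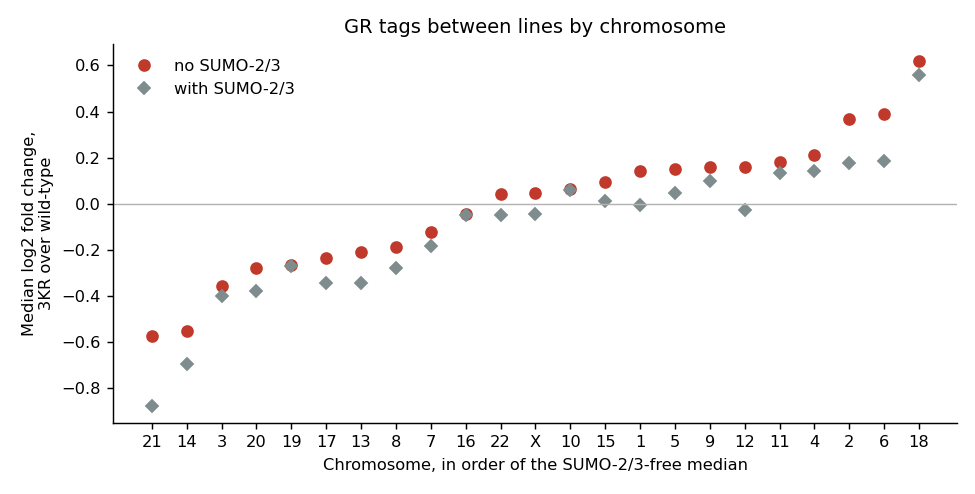
Median log2 fold change of GR tags, 3KR over wild-type, on each chromosome, ordered by the circles. Circles are SUMO-2/3-free shared sites, and diamonds are shared sites with SUMO-2/3 in either or both lines, pooled. Both sets run the same way, from chromosome 21 (-0.57 and -0.88) to chromosome 18 (0.62 and 0.56).

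The control line, whose list the rule did not use, had GR sites at 329 of the 5495 SUMO-2/3-free sites (5.99%, 95% interval 5.37 to 6.65). Shared sites with SUMO-2/3 had them at 481 of 4511 (10.7%, 9.78 to 11.6), and those with SUMO-2/3 in both lines at 14.3%. SUMO-2/3-free sites also had the lower GR medians, and the part of GR strength in the lower share was not tested. Within quintiles of the mean rank in all 4 libraries, SUMO-2/3-free sites had a control-line site in 18.8% (13.9 to 24.4) of the strongest quintile and shared sites with SUMO-2/3 in 17.2% (15.4 to 19.0). In quintile 2 the shares were 10.7% (8.66 to 13.0) and 8.08% (6.56 to 9.81), and in the weakest 2.76% and 3.16%. They were 7.40% and 5.39% in quintile 3, and 3.84% and 3.23% in quintile 4. Within quintiles the SUMO-2/3-free share was thus the higher one in all but the weakest, unlike the share over all sites. The intervals overlapped in each quintile, and the difference between classes was not tested because sites are not replicates. The control line was sequenced in 1 library, so its values have no replicate check.

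SUMO-2/3-free sites with a control-line site had more GR tags than those without. Their medians were 181 and 301 in the wild-type and 374 and 295 in the 3KR libraries (323 paired sites), against 107 and 190, and 209 and 172, without one (5074 sites). In the control line itself, the 328 sites that met a SUMO-2/3-free site had a median of 169.5 tags and a fold of 11.96, and the highest fold was 38.4. That site, on chromosome 11 from 92594561 to 92595442, was the sole SUMO-2/3-free site among the 10 control-line sites of highest fold. It had 445 control-line tags, 257 and 341 wild-type tags and 509 and 400 3KR tags, and lay 17.3 kb from the nearest SUMO-2/3 site. Of the 100 control-line sites of highest fold, 20 met a SUMO-2/3-free site, and of all 1016 control-line sites, 328 did.

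**Figure D5:**
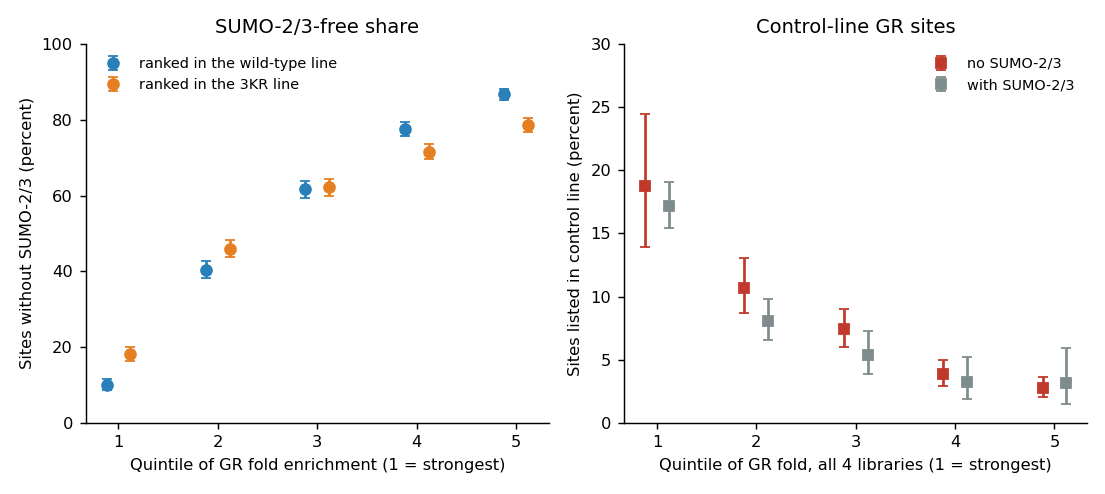
Left, percent of paired shared GR sites that are SUMO-2/3-free in quintiles of GR fold in the wild-type or the 3KR line; right, percent of sites listed in the control line in quintiles of the mean rank over 4 libraries, for sites without and with SUMO-2/3; bars are exact 95% intervals over sites. The SUMO-2/3-free share goes from 10.0% to 86.7% in the wild-type ranking, and the control-line shares of both classes overlap in each quintile.

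Of the SUMO-2/3-free sites, 20.1% lay within 10 kb of a SUMO-2/3 site of either line and 69.3% within 100 kb. Distances from random positions were not computed, so these values do not show whether the sites lay far or near. The median distance was 47.1 kb, the 10th percentile 3.52 kb and the 90th 286 kb, and 59 sites had none within 1 Mb. Within 1 kb of their edge, 194 sites (3.53%) had a SUMO-2/3 site, and within 200 bp 30 sites. To the wild-type list alone the median distance was 59.1 kb, and to the shorter 3KR list 89.5 kb. GR sites of the wild-type line only that had no SUMO-2/3, of which there were 1054, lay at a median of 40.8 kb from either line's list.

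At the edge of the rule, the nearest member lay 1 bp from a SUMO-2/3 site, on chromosome 3 from 156323174 to 156324260, beside a wild-type SUMO-2/3 site that ended at 156323172. Its GR tags were 2059 in wild-type library 1 but 188 in library 2, with folds of 68.0 and 9.97. This site did not pair singly with a 3KR site and is not among the paired values. Members on chromosomes 1 (235096211 to 235098777) and 2 (199116832 to 199117765) lay 5 and 8 bp from a 3KR SUMO-2/3 site. Just outside the rule, a shared site on chromosome 7 (117602075 to 117604197) met a wild-type SUMO-2/3 site over 3 bp, and one on chromosome 4 (139832741 to 139833926) a 3KR SUMO-2/3 site over 20 bp. A chromosome 11 site (86270255 to 86270257) also shared 3 bp with SUMO-2/3, but this was its whole width. In all, 16 members had a SUMO-2/3 site fewer than 100 bp away and 10 shared sites overlapped SUMO-2/3 by fewer than 100 bp.

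In width the SUMO-2/3-free sites had the lowest median of the shared classes, 935 bp (25th to 75th percentile 845 to 1174), and 4 were narrower than 100 bp. The median was 972 bp (872 to 1212) with SUMO-2/3 in the wild-type line only, so these 2 classes overlapped widely. It was 1037.5 bp with SUMO-2/3 in the 3KR line only and 1094 bp where SUMO-2/3 was listed in both lines. They were also more scattered. The nearest other shared GR site lay at a median of 40.2 kb, against 19.9 kb for sites with SUMO-2/3 in both lines, and 25.3% (24.1 to 26.4) had one within 10 kb, against 36.7% (34.6 to 38.8). With SUMO-2/3 in the wild-type line only, the values were 29.3 kb and 30.2% (28.2 to 32.2). They were 27.3 kb and 32.3% (28.2 to 36.6) with SUMO-2/3 in the 3KR line only. The nearest shared neighbour was itself SUMO-2/3-free for 60.0% of them (58.7 to 61.3), for 43.4% of sites with SUMO-2/3 in both lines, for 46.7% of those with SUMO-2/3 in the wild-type line only and for 57.5% (53.0 to 61.9) of those with SUMO-2/3 in the 3KR line only, an interval that overlaps that of the SUMO-2/3-free sites. The share of SUMO-2/3-free sites among all shared sites, 54.9%, is the background of these values.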

How the data were processed

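The peak lists of 9 of the 11 samples were analysed; the input and IgG libraries were not analysed here. Per the submitters' processing notes, CASAVA and Bowtie 0.12.9 were used with hg19; the peak caller is not stated in them. For every peak, per the file headers, a list holds deposited tag counts (whole, not normalized), a fold enrichment (ratio), an FDR in percent and a p column, whose deposited values exceed any −log10 p and were treated as a score and not used. The 2 lists of a group hold the same start and end for every site, so listing has no replicate spread. Listed GR tags summed to between 1868745 and 4696781 per transgene library; total depth is not stated. Listed peaks had at least 51 tags and a fold of at least 8.01.

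Sites were called overlapping at 1 bp. Tags of the paired sites were fitted with edgeR 4.0.16 (TMM, quasi-likelihood, Benjamini-Hochberg adjusted p under 0.05); 98 SUMO-2/3-free sites that did not pair singly were left out of it. Before use on the real lists the fit was tested on simulated data. The simulated libraries varied independently and less than the real ones, so this test says nothing on the number of sites called. Alternatives were DESeq2 1.42.0, limma 3.58.1 on log2 of the fold enrichment the authors deposited, other overlaps, filters and scalings, a replicate block and leaving out each library.

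Named sites are the 10 strongest paired SUMO-2/3-free sites by mean rank of fold over 4 libraries (the first few in full). Also named are the members nearest to SUMO-2/3, and the member among the 10 control-line sites of highest fold. The rule's further sites, past the threshold of the fit, did not exist, and the 5 of lowest p in each direction took their place. The members, lists and rules were chosen with earlier results of these data known. The reference tables at hand were of another build than hg19, so genes, motifs, start sites and sequences at the sites were not analysed here.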

Additional observations from a re-analysis of the deposited data

How the results depend on the processing

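The number of SUMO-2/3-free sites stayed within 1.5 times of 5495 under all 4 other rules, from 4477 with a fold of at least 10 in every list (3323 of them members) to 5438 with 50% reciprocal overlap. The control-line share was 5.28% with reciprocal overlap, 4.22% with centres within 200 bp and 7.38% at a fold of at least 10 in the wild-type libraries. The median distance to SUMO-2/3 was 59.1 kb to the wild-type and 89.5 kb to the 3KR list. Calls at an adjusted p under 0.05 depended on the test. DESeq2 called 696 sites with more and 809 with fewer tags in the 3KR line, 464 and 341 of them SUMO-2/3-free, and limma on fold enrichment 1 and 3, none of them SUMO-2/3-free. Without sites in a peak that held several sites, an alternative added after seeing the data, edgeR called 131 and 179 (85 and 76 SUMO-2/3-free). Leaving out each library gave 0 to 68 sites with more tags and 0 to 302 with fewer, and 0 to 41 and 0 to 135 SUMO-2/3-free ones, the highest without wild-type library 1; the lone library of a line was then assumed to vary like the others. With the replicate number as a block, edgeR called 746 sites with more 3KR tags and 1041 with fewer (7.64% and 10.7% of all tested). Of the SUMO-2/3-free sites tested, it called 510 (9.45%) and 476 (8.82%). Libraries of the same number deviated together (r = 0.421 across sites), but the labels tie no pairs, so they share only a number. In each case the cause was not tested. The 5 sites of lowest p in each direction, whose choice fixes that direction, passed the threshold in 40 of 110 alternative values. Motif and start-site alternatives were not run. Unknown total depth and own-peak tag counts limit every comparison between libraries.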

Other observations

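Chromosomes differed in how often a shared GR site lacked SUMO-2/3. The share of SUMO-2/3-free sites was 33.95% on chromosome 19 (55 of 162, 95% interval 26.7 to 41.8) and 39.9% on chromosome 16 (108 of 271, 34.0 to 45.95), and it reached 65.6% on chromosome 13 (181 of 276, 59.6 to 71.2) and 70.1% on the X chromosome (176 of 251, 64.0 to 75.7).

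Of 2036 windows of 1 Mb with a shared GR site, 1841 held a SUMO-2/3-free one. Among the 408 windows with at least 8 shared sites, 4 held SUMO-2/3-free sites alone, of which the fullest was on chromosome 6 from 139 to 140 Mb with 9 sites, and 5 held none. The windows with the most SUMO-2/3-free sites held 13 each. These were chromosome 5 from 142 to 143 Mb (13 of 15 shared sites) and chromosome 10 from 95 to 96 Mb (13 of 15). The same number was held by chromosome 14 from 51 to 52 Mb (13 of 16) and chromosome 15 from 70 to 71 Mb (13 of 21). SUMO-2/3-free sites were 54.9% of all shared sites. How many windows of each kind that share alone would give was not computed.

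SUMO-2/3-free sites that were also listed in the control line had a median log2 fold change of GR tags, 3KR over wild-type, of 0.20 (25th to 75th percentile -0.09 to 0.47), and 223 of 323 were above 0. Those without a control-line site had 0.03 (-0.34 to 0.36), with 2665 of 5074 above 0. At shared sites with SUMO-2/3 the medians were -0.03 with and -0.10 without a control-line site. SUMO-2/3-free sites with a control-line site were also stronger, with a median of 181 against 107 tags in wild-type library 1. By quintile of strength, the SUMO-2/3-free median log2 fold change ran from 0.18 in the strongest to -0.13 in the weakest. Strength and control-line listing were not separated. The difference was not tested, since sites share their libraries.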
